A study of Saccharomyces cerevisiae S288C with 8 samples.

Results

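The 9 genes described here encode the cyclins that bind Cdc28, the cyclin-dependent kinase of the budding yeast cell cycle. They are the G1 cyclin genes CLN1, CLN2 and CLN3 and the B-type cyclin genes CLB1 to CLB6, and they were taken by name out of 6002 nuclear protein-coding genes of the R64 annotation. A gene was counted as having a peak where a peak of Cse4, the centromeric histone H3 variant, overlapped the gene or the 1000 bp upstream of its start codon by at least 1 bp. Positions relative to the first base of the start codon are negative upstream of it. The labels give 4 strains, each with 1 ChIP library and 1 input library. The strains were GAL-CSE4-FLAG cdc7-7 (cdc7-7 OE), with Cse4 overexpressed in raffinose/galactose for 1.75 hr, GAL-CSE4-FLAG with wild-type CDC7 (wild-type OE) in the same medium, CSE4-HA cdc7-7 (cdc7-7 endogenous) in glucose, and CSE4-HA (wild-type endogenous) in glucose. All 8 libraries came from logarithmic cultures fixed with formaldehyde, and every ChIP used an anti-FLAG gel. The labels name an HA tag for the endogenous protein, whereas the paper calls it Flag-Cse4. Both endogenous lists held 16 peaks at centromeres. The cdc7-7 allele is temperature sensitive, and the paper states that the cultures were grown at a permissive temperature. Level of Cse4, its promoter, its tag as labeled and carbon source changed together, so they cannot be told apart. With 1 library per condition, no difference between strains could be set against a replicate error.

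Cyclins give Cdc28 its timing and part of its choice of substrates. Cln3 acts upstream in G1, where it helps to release the transcription factors SBF and MBF from inhibition, and Cln1 and Cln2 then drive passage through Start and bud emergence. Clb5 and Clb6 drive the firing of replication origins in S phase, next to the Cdc7-Dbf4 kinase. Clb3 and Clb4 act in spindle formation, and Clb1 and Clb2 drive mitosis. Transcription of these genes is periodic for most members, with SBF and MBF acting at G1 genes through the SCB and MCB elements, and Mcm1 with the forkhead factor Fkh2 acting at CLB1 and CLB2.

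In the cdc7-7 OE list, 7 of the 9 cyclin genes had a peak, namely CLN1, CLN2, CLN3, CLB5, CLB4, CLB1 and CLB2. Only CLB6 and CLB3 had none. The same rule found a peak at 55.9% of all genes in this list, and a count of 7 among 9 is read against that share, not as a property of cyclin genes. In the wild-type endogenous list, the 3 G1 cyclin genes had a peak and none of the 6 B-type genes did, against 20.2% of all genes. The difference between G1 and B-type genes was not tested. This list held 795 peaks off the centromeres. The paper, in contrast, describes endogenous Cse4 in the wild-type strain as enriched mainly at centromeres. The peaks at the G1 cyclin genes are therefore given as listed, and whether endogenous Cse4 occupies these genes was not tested. No member had a peak in the wild-type OE list, where 1.05% of all genes had 1, or in the cdc7-7 endogenous list, where 4.75% had 1.

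**Figure D1:**
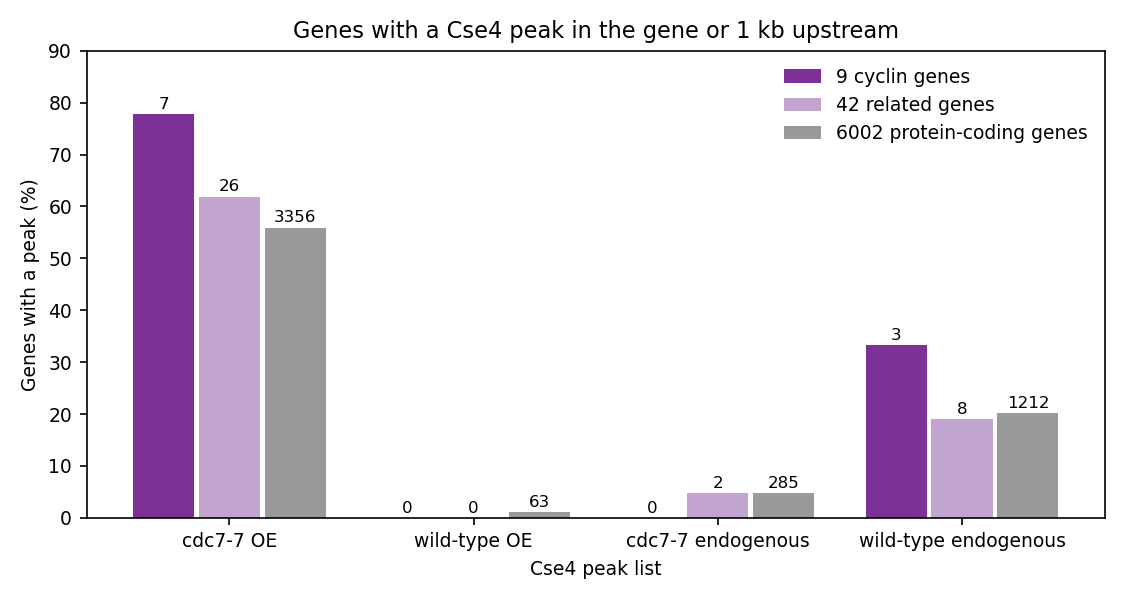
Share of genes with a Cse4 peak overlapping the gene or its 1000 bp upstream (y axis, percent) in each of the 4 peak lists, for the 9 cyclin genes, 42 related cell cycle and cyclin genes, and all 6002 protein-coding genes, with the number of genes above each bar. The cyclin genes are at 7 in cdc7-7 OE, 0 in wild-type OE, 0 in cdc7-7 endogenous and 3 in wild-type endogenous.

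The libraries differed in background, which stands here for depth and is not a count of the fragments in a library. The median background at the centromeres, in fragments, was 146 in cdc7-7 OE and 37.9 in wild-type OE, and 76.2 in cdc7-7 endogenous and 200.3 in wild-type endogenous. The lists held 2203 peaks in cdc7-7 OE and 46 in wild-type OE, and 183 in cdc7-7 endogenous and 811 in wild-type endogenous. No peak of the wild-type OE list had a fold enrichment (pileup over background at the summit) below 1.63. The folds at CLN1, CLB4 and CLB2 in cdc7-7 OE, from 1.44 to 1.53, were lower than that. Whether enrichment of this size could be called at the depth of wild-type OE was checked by scaling alone. The cdc7-7 OE summits were scaled to 26.1% of their fragments, the ratio of the wild-type OE to the cdc7-7 OE background at the centromeres. Of the members, 4 (CLN2, CLN3, CLB5 and CLB1) still passed the weakest p of the wild-type OE list, against 18.5% of all genes. CLN1, CLB4 and CLB2 did not pass. When the wild-type endogenous summits were scaled in the same way to cdc7-7 endogenous, all 3 members stayed, against 10.8% of all genes. The cdc7-7 endogenous list had none of them. These scaled counts start from summits already called and are not a new peak calling. The scaled shares of all genes, 18.5% and 10.8%, exceed the 1.05% and 4.75% found in wild-type OE and cdc7-7 endogenous. A member kept by the scaling but absent from those lists therefore says little about that member.

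The sequences around the summits in the cdc7-7 OE list are shown for the G1 cyclin genes, for CLB5 as the member with the highest fold enrichment, and for CLB2 as the member with the lowest. Each window holds 101 bases centered on the summit and was read from R64 on the strand of the cyclin gene, 5′ to 3′. Capitals mark an MCB (ACGCGT) or an SCB (CACGAAA or CGCGAAA), searched on both strands.
CLN1, chrXIII:662031-662131, plus strand: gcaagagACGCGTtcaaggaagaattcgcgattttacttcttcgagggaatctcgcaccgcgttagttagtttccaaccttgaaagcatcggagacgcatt
CLN2, chrXVI:67078-67178, minus strand: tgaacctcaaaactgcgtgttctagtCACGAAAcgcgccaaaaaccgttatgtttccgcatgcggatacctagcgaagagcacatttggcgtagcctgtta
CLN3, chrI:68175-68275, minus strand: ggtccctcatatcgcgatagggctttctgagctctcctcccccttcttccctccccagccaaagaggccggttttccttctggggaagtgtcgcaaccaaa
CLB5, chrXVI:775412-775512, minus strand: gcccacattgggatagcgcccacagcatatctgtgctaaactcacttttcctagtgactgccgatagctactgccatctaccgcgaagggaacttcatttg
CLB2, chrXVI:770656-770756, plus strand: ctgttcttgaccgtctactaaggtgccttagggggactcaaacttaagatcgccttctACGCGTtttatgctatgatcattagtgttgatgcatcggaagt

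CLN1 (YMR199W, chromosome XIII, 662644 to 664284) and CLN2 (YPL256C, chromosome XVI, 64977 to 66614) encode the paralogous cyclins of Start. At CLN1, the cdc7-7 OE peak was 1171 bp wide, with its summit at -563 bp. It had a pileup of 291 fragments (95% Poisson interval from 259 to 326) over an expected 190.03, which gave a fold enrichment of 1.529. This is the highest background among the 8 peaks at members in that list, and the fold lay just below the list's median of 1.530 off the centromeres. The peak spanned most of the 1114 bp between CLN1 and CIK1, the kinesin-associated protein gene upstream in tandem, and reached into the 3′ end of CIK1. In wild-type endogenous, the CLN1 peak was 347 bp wide with its summit at -732 bp, 323 fragments (289 to 360) over 228 and a fold enrichment of 1.42. It lay wholly within the cdc7-7 OE peak, and the summits were 169 bp apart. Both summits lay nearer to CIK1 than to CLN1, at 552 bp from CIK1 in cdc7-7 OE and 383 bp in wild-type endogenous.

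At CLN2, the cdc7-7 OE peak was 1038 bp wide, with its summit at -514 bp, 283 fragments (251 to 318) over 155 and a fold enrichment of 1.82. CLN2 and BBP1, a spindle pole body component gene, diverge from a shared region of 1110 bp, and the peak also overlapped the start of BBP1. The summit lay nearer to CLN2 than to BBP1. In wild-type endogenous, the peak was 271 bp wide with its summit at -521 bp, 360 fragments (324 to 399) over 236 and a fold enrichment of 1.52, the highest of the 3 members in that list. The summits of the lists were 7 bp apart, the closest match among the members. Both summits fell beside a group of SCB elements. The element in the window shown begins at -538 bp, 21 bp from the cdc7-7 OE summit, and others begin at -581 and -606 bp, in the next stretch of 61 bases, shown because it holds both spellings of the element.
CLN2, chrXVI:67175-67235, minus strand: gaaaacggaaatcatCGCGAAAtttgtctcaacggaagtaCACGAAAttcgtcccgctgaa

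CLN3 (YAL040C, chromosome I, 65778 to 67520) encodes the cyclin that acts furthest upstream in G1. Its cdc7-7 OE peak was 301 bp wide, with its summit at -705 bp, 237 fragments (208 to 269) over 131 and a fold enrichment of 1.80. It lay inside the 1195 bp between CLN3 and CYC3, the cytochrome c heme lyase gene, and touched no gene. The summit was nearer to CYC3, at 491 bp, than to CLN3. The wild-type endogenous peak at CLN3 lay elsewhere. It was 253 bp wide and covered the start codon, with its summit 65 bp inside the gene, 253 fragments (223 to 286) over 177 and a fold enrichment of 1.43. The peaks of the lists did not overlap, with a gap of 522 bp between them and 770 bp between the summits. The 3 CLN genes therefore had a peak in the same 2 lists, but the peaks of these lists overlapped at CLN1 and CLN2 alone. Of all genes with a wild-type endogenous peak, 70.5% also had a cdc7-7 OE peak, and of those with a cdc7-7 OE peak, 25.5% also had a wild-type endogenous peak.

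**Figure D2:**
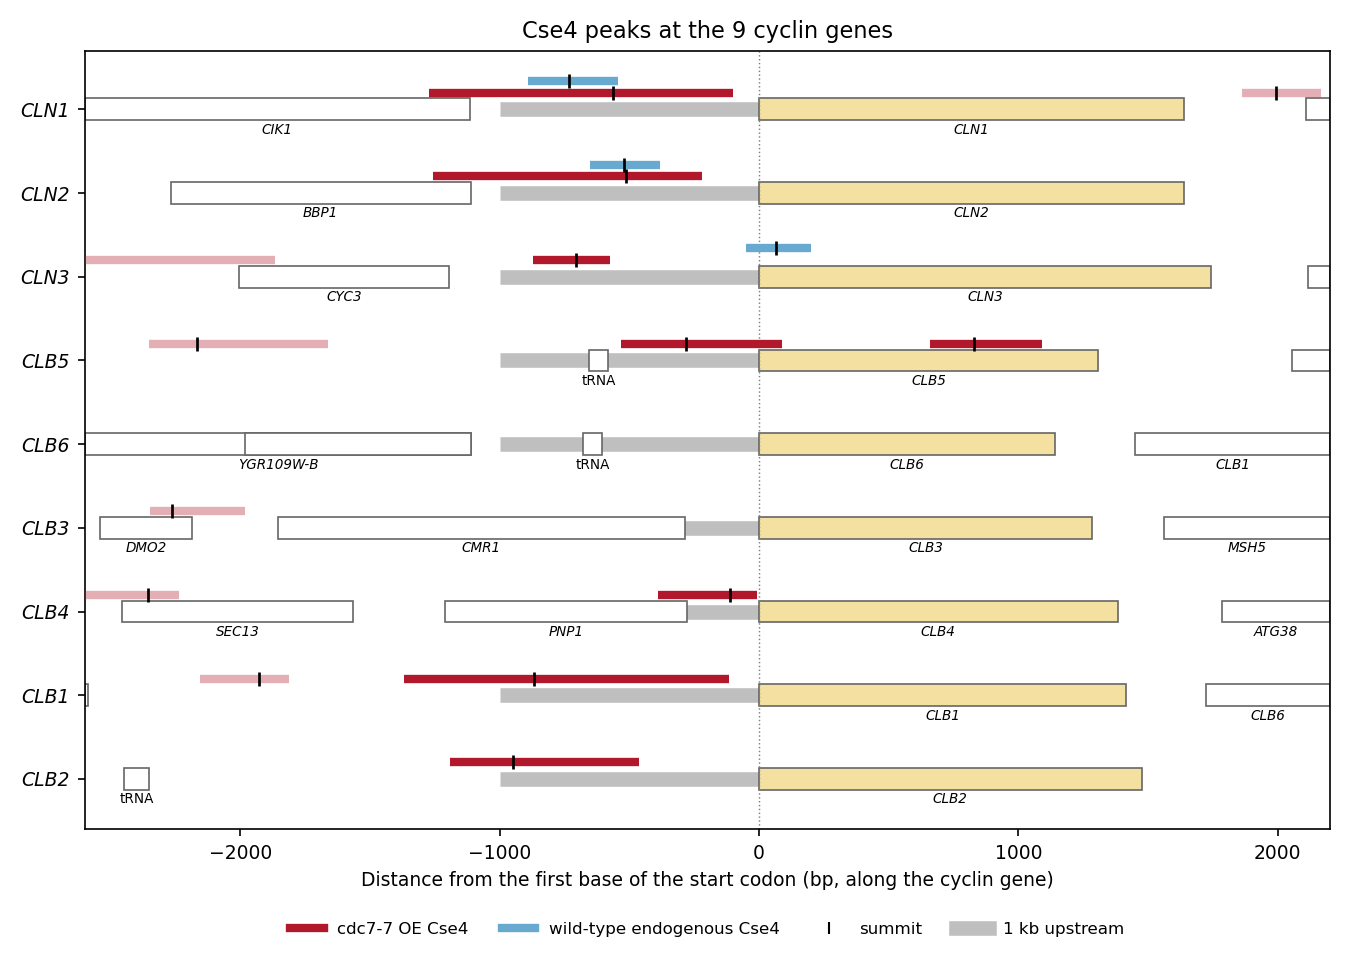
Cse4 peaks at the 9 cyclin genes, drawn along each gene with the first base of the start codon at 0 (x axis, bp). Yellow boxes are the cyclin genes, white boxes other annotated genes, grey bars the 1000 bp upstream, red bars cdc7-7 OE peaks, blue bars wild-type endogenous peaks and black ticks summits, with pale red for peaks outside the counted window. Counted peaks lie upstream of the start codon except at CLB5, where a peak lies inside the gene and the upstream peak runs over the start, and at CLN3, where the blue peak covers the start.

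CLB5 (YPR120C, chromosome XVI, 773875 to 775182) and CLB6 (YGR109C, chromosome VII, 705359 to 706501) encode the cyclins of S phase. CLB5 was the only member with more than 1 peak. Its upstream peak was 622 bp wide, from -533 bp to 88 bp inside the gene, with its summit at -280 bp. It had 333 fragments (298 to 371) over 155 and a fold enrichment of 2.14, the highest of the members, and ranked at 33 among the 2188 peaks off the centromeres. Another peak lay inside CLB5, with its summit 827 bp into the gene, a width of 430 bp, 254 fragments (224 to 287) over 135 and a fold enrichment of 1.88, at rank 169. It was the only summit inside a cyclin gene in this list. CLB6 had no peak in any list, and the nearest cdc7-7 OE peak lay 1839 bp outside its window.

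The surroundings of CLB5 and CLB6 are alike in arrangement. Upstream of CLB5 lies a tRNA gene after 582 bp, and upstream of CLB6 a tRNA gene after 606 bp. Long terminal repeats of retrotransposons take up 90 of the 1000 bp upstream of CLB5 and 307 of those upstream of CLB6. Of the 50-base words in these upstream regions, 96.1% occur once in the genome at CLB5 and 69.9% at CLB6, whereas at the other 7 members 100% do. The authors kept only reads with 1 alignment. The part of this in the absence of a CLB6 peak was not tested. The long terminal repeat begins 694 bp from CLB6, and nearer to the gene lie 2 MCB elements, which begin at -403 and -377 bp and are shown because the gene without a peak carries them. CLB5, with the highest fold enrichment, has no match to the MCB or SCB letters in its 1000 bp.
CLB6, chrVII:706858-706918, minus strand: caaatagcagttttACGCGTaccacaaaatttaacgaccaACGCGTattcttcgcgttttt

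CLB3 (YDL155W, chromosome IV, 176773 to 178056) and CLB4 (YLR210W, chromosome XII, 562008 to 563390) encode the cyclins of spindle formation. They have the shortest upstream regions of the members, 286 bp to CMR1 in tandem and 275 bp to the divergent PNP1, a purine nucleoside phosphorylase gene. CLB4 had a cdc7-7 OE peak 382 bp wide, with its summit at -110 bp, 266 fragments (235 to 299.96) over 178 and a fold enrichment of 1.49. That summit was the closest to a start codon among the upstream ones, and the peak ran over the start of PNP1 too. Bases around it were the richest in A and T at any member summit, with 74.3% over 101 bases. CLB3 had no peak, and the nearest in cdc7-7 OE lay 983 bp outside its window, with its summit inside DMO2 and a fold enrichment of 1.503.

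CLB1 (YGR108W, chromosome VII, 703636 to 705051) and CLB2 (YPR119W, chromosome XVI, 771653 to 773128) encode the mitotic cyclins, and they have the longest upstream regions, 2587 and 2350 bp, each ending at a tRNA gene. Each mitotic cyclin gene stands tail to tail with an S phase cyclin gene. CLB1 and CLB6 are 307 bp apart, and CLB2 and CLB5 746 bp. CLB1 had the widest peak of the members in cdc7-7 OE, 1253 bp, with its summit at -867 bp, 285 fragments (253 to 320.1) over 158 and a fold enrichment of 1.80. At CLB2, the peak was 728 bp wide with its summit at -947 bp, 217 fragments (189 to 248) over 151 and a fold enrichment of 1.44, the lowest of the members. Its summit was the nearest to the limit of the window. The Poisson intervals of the pileups at CLB5 (upstream) and CLB2 do not overlap, while their backgrounds were nearly equal. These peaks were picked as the highest and lowest in fold among the members, so a gap between them says little. The intervals cover counting error only, and a summit is by definition the highest point of its peak.

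**Figure D3:**
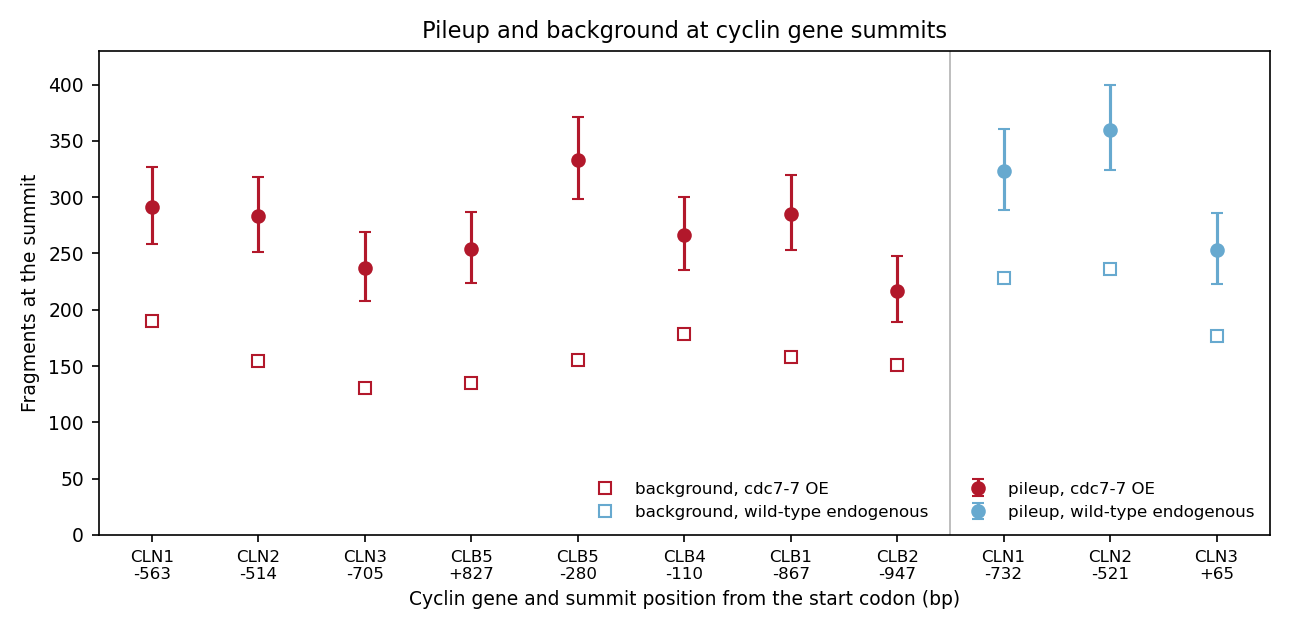
Fragments at the summit (y axis) for the 8 cdc7-7 OE peaks (left) and the 3 wild-type endogenous peaks (right) at cyclin genes, with the gene and the summit's distance from the start codon in bp below. Filled circles are pileups with 95% exact Poisson intervals and open squares are the backgrounds expected from the input. Every interval lies above its background, which is largely given by the calling of these peaks for an excess over it. The upstream peak of CLB5 has the highest cdc7-7 OE pileup, 333 over 155.

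Over the 7 genes with a peak in cdc7-7 OE, the median of the strongest fold enrichment per gene was 1.80, from 1.44 to 2.14. Over all genes with a peak in this list the median was 1.55. Of the 8 member peaks, 5 were above the median of 1.53 over all peaks off the centromeres, and the folds at CLB5 (both peaks), CLN2, CLN3 and CLB1 were higher than those of at least 87.1% of these peaks. CLN1, CLB4 and CLB2 were below the median. All 8 had a -log10 q of at least 5, so that 7 of the 9 members had a peak at this threshold, against 42.4% of all genes. Only the upstream CLB5 peak had a fold enrichment of at least 2, which left 1 member, against 2.82% of all genes. In wild-type endogenous, the members' median was 1.43, against 1.40 over all genes with a peak, and all 3 exceeded the median of 1.38 off the centromeres. By pattern over the 4 lists, CLB5 had a peak in cdc7-7 OE alone, as did 2444 genes outside the 9 members. Among these, the genes nearest to it in log2 fold enrichment were MBR1 (fold 2.15, summit at -208 bp), KAR4 (fold 2.13, summit 1271 bp downstream of the start codon) and UME1 (fold 2.13, summit at -150 bp).

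**Figure D4:**
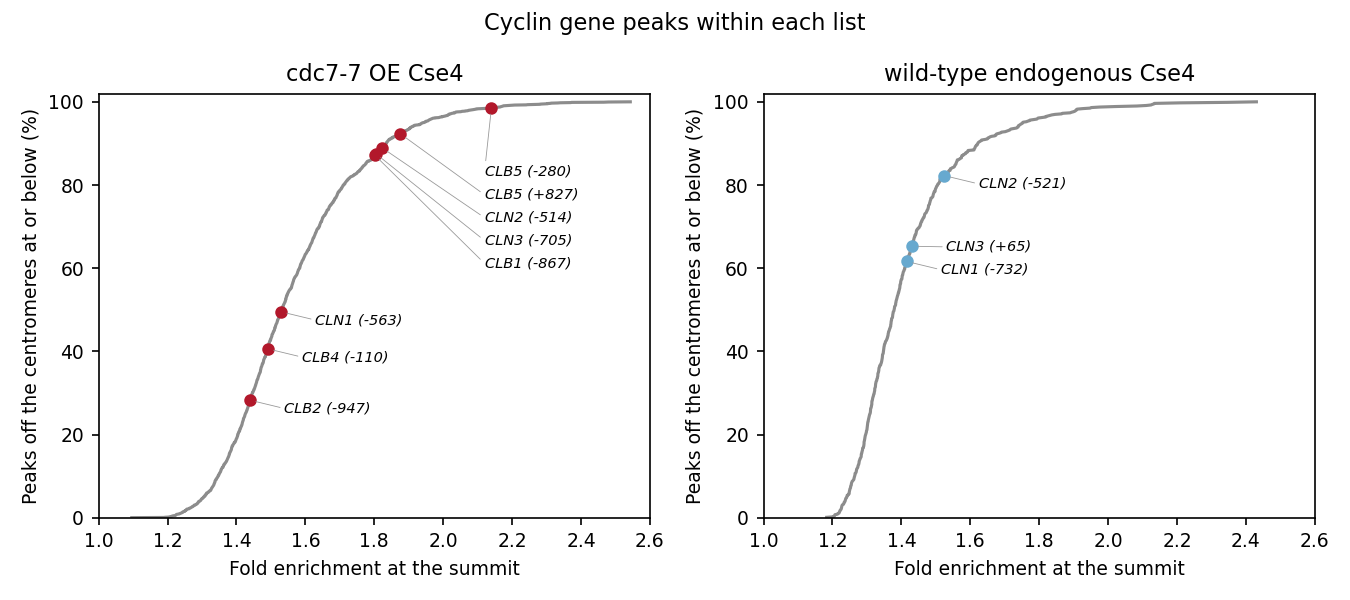
Cumulative share of the peaks off the centromeres (y axis, percent) against fold enrichment at the summit (x axis) in cdc7-7 OE (left) and wild-type endogenous (right), with the peaks at cyclin genes marked and the summit's distance from the start codon in bp in parentheses. On the left, 5 of 8 marked peaks lie in the upper part of the curve and CLB2 lowest at 1.44. On the right, the 3 marked peaks lie between 1.42 and 1.52.

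Summits at the cyclin genes lay further from the start codon than is usual in the list. In cdc7-7 OE, the median position of the strongest summit was -563 bp over the 7 members and -205 bp over all 3356 genes with a peak. At 5 of the 7, namely CLN1, CLN2, CLN3, CLB1 and CLB2, it lay 500 bp or more upstream, as it did at 24.2% of all genes with a peak. These 5 are also the members with at least 1000 bp between them and the nearest gene upstream, a length found at 11.4% of all genes, against a median over all genes of 414 bp. Among the 409 genes with such a long upstream region and a peak, the median was -458 bp and 47.2% had their summit at 500 bp or more. All 5 members with a long upstream region and 2 of the 4 with a shorter one had a peak, against 59.9% and 55.5% of all genes of these classes, which were formed after the values were seen. Peaks reached the coding sequence of 1 member, CLB5, against 37.9% of all genes.

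**Figure D5:**
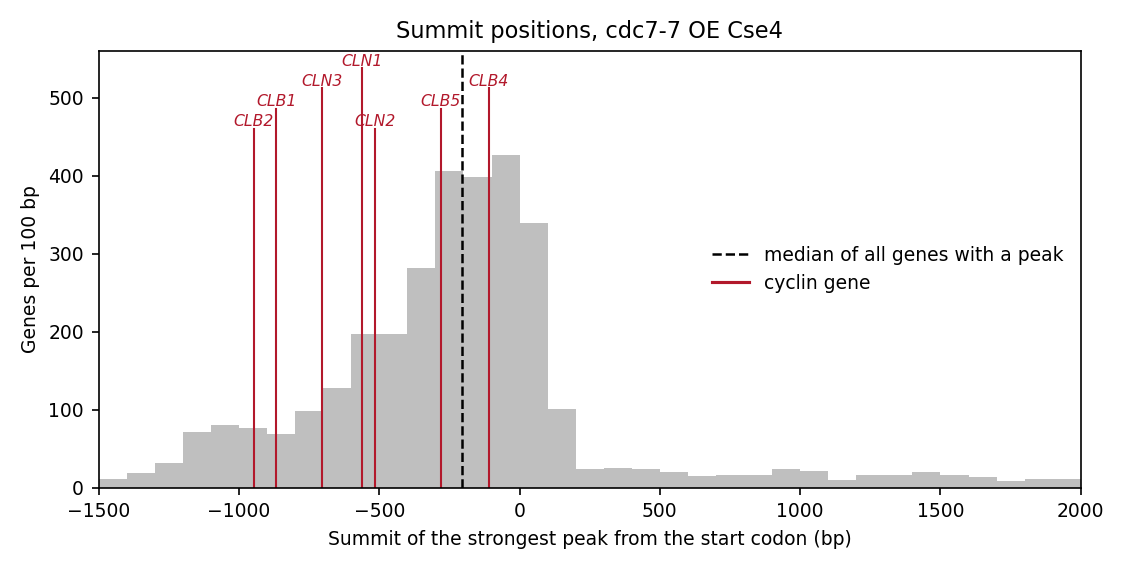
Position of the strongest cdc7-7 OE summit per gene (x axis, bp from the start codon, negative upstream) for the 3356 genes with a peak, as a histogram of genes per 100 bp (y axis), with the 7 cyclin genes as red lines and the median of all genes, -205 bp, as a dashed line. CLB5 and CLB4 lie among the most frequent positions and the other 5 between -947 and -514 bp. The 109 genes beyond -1500 or 2000 bp are not drawn.

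The base composition at the summits differed among the members. The share of A and T in the 101 bases around the summit ran from 42.6% at CLN3 to 74.3% at CLB4, with a median of 54.0% over the 8 peaks, against 60.4% over all peaks off the centromeres. The letters of the MCB occurred in the 1000 bp upstream of 3 of the 9 members, CLN1, CLB6 and CLB2, against 8.50% of all genes. They lay inside the cdc7-7 OE peak at CLN1, where the element begins at -606 bp and is centered 40.5 bp from the summit, and at CLB2, where it begins at -939 bp and is centered 10.5 bp from the summit. The SCB spelled CACGAAA was found upstream of CLN1 and CLN2, against 12.7% of all genes, and the spelling CGCGAAA upstream of CLN2 and CLB4, against 7.90%. The elements of CLN1 and CLN2 lay inside the peaks and that of CLB4 did not. The peaks ran from -1272 to -102 bp at CLN1, -1257 to -220 bp at CLN2 and -1190 to -463 bp at CLB2. They cover much of the 1000 bp searched, so an element found there is likely to lie inside by their width alone. The overlap was not tested. The forkhead letters GTAAACA occurred upstream of 5 members (CLN1, CLB6, CLB4, CLB1 and CLB2), against 17.8% of all genes. The fixed letters of the Mcm1 box, CC and GG with any 6 bases between, occurred at all 9 and at 77.0% of all genes. A match of letters does not show that a factor binds there.

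Among 42 related genes, 26 (61.9%) had a peak in cdc7-7 OE, 0 in wild-type OE, 2 in cdc7-7 endogenous and 8 (19.05%) in wild-type endogenous, close to the shares of all genes. There were 10 cyclins of Pho85, a kinase active in phosphate and G1 control. Of these, 7 had a peak in cdc7-7 OE, against 55.9% of all genes, and 5 in wild-type endogenous, against 20.2%. PCL2, a G1 cyclin of Pho85, had summits at -620 bp in cdc7-7 OE (fold enrichment 1.91) and at -640 bp in wild-type endogenous (1.46). The other 4 in wild-type endogenous were PCL10 (1.83), PCL8 (1.40), PCL5 (1.28) and PCL7 (1.25). PCL8 and PCL6, which act in glycogen metabolism, had folds of 1.66 and 1.55 in cdc7-7 OE. In cdc7-7 endogenous, PHO80, the cyclin of phosphate sensing, had a peak at 1.43. The 4 cyclins of transcription and other kinases (CCL1, SSN8, BUR2 and CTK2) all had a peak in cdc7-7 OE, against 55.9% of all genes. SSN8, the cyclin of the Mediator kinase, was at 1.94. CTK2 (1.36), BUR2 (1.28) and CCL1 (1.27) were below the median of 1.53 over all peaks off the centromeres.

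Cdc28 itself had no peak at its gene in any list. Of the 7 genes for Cdc28 and its direct regulators, CKS1 (fold enrichment 1.84), the small subunit of the kinase, MIH1 (1.65), its activating phosphatase, and SIC1, an inhibitor of its Clb forms, had a peak in cdc7-7 OE, which is 42.9% of this list, against 55.9% of all genes. Of the 14 transcription regulators, 8 (57.1%) had a peak in cdc7-7 OE, about the share of all genes. The highest were FKH2 (2.06), the forkhead factor of mitotic genes, YOX1 (1.85), a repressor at Mcm1 sites, NRM1 (1.82), a co-repressor of MBF, and SWI5 (1.55), a factor of late mitosis. MCM1 (1.498), MBP1 (1.45), the DNA-binding subunit of MBF, and YOX1 (1.38) had a peak in wild-type endogenous. SWI4 and SWI6, which form SBF, had none. Of the 7 genes of cyclin destruction, 4 (57.1%) had a peak in cdc7-7 OE, again about the share of all genes, with CDC34, the ubiquitin-conjugating enzyme of SCF, at 1.89 and CDC20, an activator of the anaphase promoting complex, at 1.58. CDC34 also had a peak in cdc7-7 endogenous (1.496).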

How the data were processed

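The authors aligned 50-base paired reads to S288C R64 with Bowtie 1.0.0, keeping reads with 1 alignment, removed duplicates with SAMtools, sampled each input down to 1 common size and ran the peak caller MACS on fragments of each ChIP library against its own input, without pooling. The deposited lists give per peak the fold enrichment, a ratio of pileup to background with a pseudocount of 1, the −log10 p and −log10 q, a score that is the q value times 10 as a whole number, and the summit offset. The score was not used. The pileup, a whole number, and the background were solved from the deposited fold enrichment and Poisson −log10 p. A solution was kept where its miss was under 0.1 of that of the next best whole number, which solved 2201 of 2203 peaks in cdc7-7 OE, 45 of 46 in wild-type OE, 182 of 183 in cdc7-7 endogenous and 810 of 811 in wild-type endogenous. Intervals are 95% exact Poisson intervals. The background at the centromeres stands for depth, as no list states a number of fragments.

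Genes came from the R64 reference annotation, the build the authors used. Positions are 1-based, and distances run from the first base of the start codon. The 1000 bp upstream include any 5′ UTR, since the annotation gives none. Where a gene had several peaks, the highest fold enrichment was taken. The members, the 42 related genes and the tests were chosen with earlier results of these data known. The genes named are all members, their neighbors, up to 12 related genes per list by fold enrichment, and 3 genes with the most similar pattern. SIC1, CTK2, BUR2, CCL1, CDC28, SWI4 and SWI6 fall outside this rule and were named after their values were seen. No test was run between strains. Alternatives were other upstream windows, the gene or upstream region alone, the summit in place of the peak, stricter thresholds, scaled depth, other fold scales and the peak midpoint. The scripts were tested on simulated data and ran with Python 3.11.15, numpy 2.4.6, pandas 2.3.3, scipy 1.17.1 and matplotlib 3.10.9.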

Additional observations from a re-analysis of the deposited data

How the results depend on the processing

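Of 37 alternative values, 29 stayed close to the value reported, which means within 1.5 times for a count and within the counting interval for the median fold enrichment. A change of the median position was always counted as a move. The wild-type OE and cdc7-7 endogenous lists had 0 members under every alternative. For these lists, only the upstream window of 2000 bp could have added a member. The other alternatives narrow the rule or the list, so those counts of 0 were fixed in advance, though they are among the 29. In cdc7-7 OE, the count of 7 members became 1 with the gene body alone, against 37.9% of all genes. With a minimum fold enrichment of 2 it became 1 (CLB5), against 2.82% of all genes. Scaled to the centromere background of the wild-type OE library, it became 4, against 18.5%. In wild-type endogenous, the count of 3 became 1 (CLN3) with an upstream window of 250 bp, against 14.1% of all genes, 1 with the gene body alone, against 11.6%, and 0 with a minimum fold enrichment of 2, against 0.833%. A count of 1 among 9 is near the shares for the shorter window and for the gene body. The median fold enrichment in cdc7-7 OE was 1.177 when divided by the median off the centromeres, and the median position was -723 bp by the peak midpoint. An upstream window of 2000 bp added CLB3 in cdc7-7 OE, for 8 members against 63.6% of all genes. No paired analysis was possible because each condition has 1 ChIP library, and no library could be left out.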
